A study of Mus musculus with 10 samples.

Results

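TEC genes, an annotation class for transcripts that still await experimental proof, are stretches of the mouse genome where clusters of cDNA reads with signs of a poly-A tail lie and for which no product is established. The report describes the 200 TEC genes on chromosomes 1 to 19 that had the highest mean level in the neural retina, out of 3145 TEC genes on these chromosomes and 54532 genes in all. They were chosen by one value, the mean FPKM over the 10 retinas of the study. FPKM counts sequenced fragments per length of gene and per size of the library, so that levels can be compared between genes of different length. The members' mean FPKM ranged from 1.59 to 37.9 with a median of 2.67, and that of the other TEC genes on these chromosomes had a median of 0.0698. At the edge of the choice, *Gm45221* (1.62) and *Gm37127* (1.594) were the last inside, and *1110003F10Rik* (1.593) and *Gm42648* (1.586) the first outside. All 200 members reached the level needed for testing, 0.1 FPKM in at least 5 retinas, which the choice itself made likely.

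The retinas came from BALB/c mice, an albino strain whose retina is sensitive to light. All mice were 2 months old and were dark-adapted for 12 h. They were then kept for 1 day either under normal light of 200 lux (NL, 5 retinas, numbered 1, 4, 5, 7 and 8) or under light of 15000 lux (light damage, LD, 5 retinas, numbered 1, 4, 6, 7 and 8). No gene was altered in either group, as far as the labels say. Strong light injures the photoreceptors, the rod and cone cells that turn light into a signal through the transducin cascade. The glia of the retina respond to such injury with stress and inflammation genes.

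Depth was 18965090 to 26832535 reads per retina. Some retinas were closer to each other than the rest of their group. The chi-square per gene between NL-5 and NL-7, LD-1 and LD-7, and LD-4 and LD-6 was 2.52 to 3.41, against 10.9 to 38.5 for the other pairs within a group. These pairs still differed by more than the noise of counting, and nothing in the labels ties them together. All 10 retinas were therefore kept, and counts are also given with the 3 close pairs averaged. If retinas of a pair share an animal, the p-values measure in part a technical spread. The retinas held the RNA of photoreceptors, whose 73 listed markers were all detected. By the test given below, 49 of the 73 were called lower in LD, against 2.37% of all genes tested. The markers were picked with earlier results of these data known, so their count is no independent finding. The summed FPKM of the 73 markers was 20293 to 23342 in NL and 4419 to 8361 in LD. The summed FPKM of 13 microglia and macrophage markers was 35.0 to 54.7 in NL and 74.1 to 169 in LD. Fewer cells of a type and less RNA per cell cannot be told apart in whole retinas, and the part of either in the results below was not tested.

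Most members were short, unspliced pieces of sequence. Their median length was 1805.5 bases (60 to 5446), and 195 of the 199 found in GENCODE release M21 had a single exon. The median member had 109 reads per retina, 10 members had a median under 20 reads, and 109 had 100 or more. The members lay on 17 of the 19 chromosomes, with 30 of them on chromosome 5 and none on chromosomes 11 and 19. Those last chromosomes hold 15 and 5 TEC genes in all.

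Since the class is defined in part by poly-A evidence, the 3′ ends of the model transcripts were read. The poly-A signal, the hexamer bound by the cleavage machinery shortly before the site where a transcript is cut, is AATAAA or its common variant ATTAAA. Of the 196 members with a usable transcript of at least 50 bases, 80 (40.8%) held either hexamer on the transcript strand within the last 50 bases. This compares with 27.9% of the 2907 other TEC genes and 28.7% of all 3103. AATAAA alone was found in 58 members (29.6%) and in 21.1% of the other TEC genes. The ends below belong to the members that changed most in light or departed most from the gene they overlap, and that touch no annotated exon of it (*Gm22574*, with few reads, was left out). They are the last 50 bases of each transcript on GRCm38, 5′ to 3′, from the GENCODE M21 transcripts, with the hexamer nearest the end in capitals.
A930036K24Rik, chr9:107681232-107681281, + strand: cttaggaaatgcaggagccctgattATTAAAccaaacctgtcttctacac
Gm47160, chr9:47473049-47473098, - strand: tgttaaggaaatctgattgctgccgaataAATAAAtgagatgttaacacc
Gm47233, chr9:70071985-70072034, + strand: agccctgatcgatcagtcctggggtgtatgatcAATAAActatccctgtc
Gm13821, chr5:114838875-114838924, - strand: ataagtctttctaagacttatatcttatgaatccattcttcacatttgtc
Gm43197, chr6:3336772-3336821, - strand: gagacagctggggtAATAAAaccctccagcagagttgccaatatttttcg
Gm47246, chr13:59605613-59605662, + strand: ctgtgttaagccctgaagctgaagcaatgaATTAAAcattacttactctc
4930412F12Rik, chr8:57650889-57650938, - strand: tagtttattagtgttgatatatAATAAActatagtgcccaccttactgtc
9530085L11Rik, chr8:13285352-13285401, - strand: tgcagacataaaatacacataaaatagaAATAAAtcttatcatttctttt
Gm48581, chr13:47152357-47152406, - strand: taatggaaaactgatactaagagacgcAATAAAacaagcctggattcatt
The hexamer ended 11 to 30 bases before the end of these models, and *Gm13821*, the member with the largest log2 fold change, held neither form in this window.

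Most members sat inside or across a known gene. In all, 134 of 200 (67%) overlapped a protein-coding gene, against 62.7% of the other TEC genes, and 122 of the 134 lay entirely inside it. Of the 134, 81 were on the same strand as that gene and 53 on the opposite strand. By the exons of M21, 95 lay outside the exons of the gene they overlapped, 37 touched an exon and 23 touched an untranslated region. The 134 members shared 124 genes, since *Galnt7* and *Usp33* each held 3 members, and *C1ql3*, *Eml5*, *Hmx1*, *Slc6a6*, *Trpm1* and *Zfp280d* each held 2. The library kit does not mark the strand, and how the counting used it is not given in the sources used here. Reads of a member and of the gene around it, unspliced transcripts included, can therefore not be told apart where they overlap. The files bear one trace of the counting: all 10 TEC genes of chromosomes 1 to 19 that lie wholly within exons of a protein-coding gene on the opposite strand, and the only one within exons on the same strand, were at 0 in every retina. Of the 1639 TEC genes inside a protein-coding gene and outside its exons, 5.37% were at 0 in every retina, and of the 1163 without overlap 35.8% were.

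The level of a member was not a fixed share of the gene it overlapped. Over the 132 pairs in which both genes could be tested, the median member stood at 19.7% of its gene's FPKM, with quartiles of 9.05% and 39.6%. The log2 mean levels of member and gene were only loosely related across the pairs (Pearson r = 0.18, Spearman correlation 0.04, n = 132 pairs, which share libraries). The members were chosen by this same mean level, which narrows its range and flattens the correlation. These values therefore cannot show how the levels are related over all TEC genes. *AC160637.1* reached 4.53% of *Pkm*, the gene of pyruvate kinase.

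**Figure D1:**
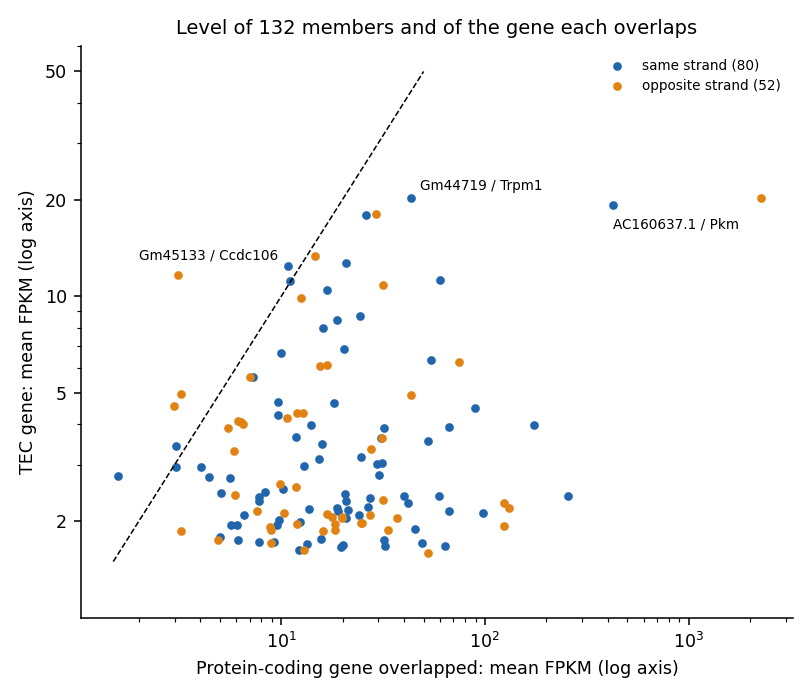
Mean FPKM over the 10 retinas of 132 TEC genes (vertical, log axis) against that of the protein-coding gene each overlaps (horizontal, log axis), 80 pairs on the same strand and 52 on opposite strands. The dashed line marks equal levels: most points lie below it, *Gm45133* stands above *Ccdc106*, and *AC160637.1* stands far below *Pkm*.

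In 9 of 134 cases a member exceeded the gene it overlapped, and 1 of these genes, *Gm20388*, which overlaps *Gm45743*, was listed at 0. Among genes above 0 the highest ratio was that of *Gm37416* in *Malrd1*, at 17.2 times the level of a gene that was itself at 0.150 ± 0.0713 FPKM in NL and 0.0561 ± 0.0282 in LD (SD, n = 5 each). This ratio rests on few reads, as *Gm37416* had 2 to 26 per retina in NL and 8 to 30 in LD. *Gm45133* stood at 374% of *Ccdc106*, *9930120I10Rik* at 174% of the GTPase gene *Rab43*, *Gm44136* at 154% of *Abhd18* and *4930466K18Rik* at 153% of *Mcm9*, a gene of DNA replication and repair. For *Gm45133* the level was steady, at 10.8, 10.7, 11.2, 13.1 and 11.4 FPKM in NL-1, NL-4, NL-5, NL-7 and NL-8 and at 11.1, 11.04, 12.5, 11.9 and 13.1 in LD-1, LD-4, LD-6, LD-7 and LD-8. The groups overlapped, and its log2 fold change was 0.06 ± 0.07 (SE; limma, adjusted p = 0.592).

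After 1 day of strong light, most of the abundant TEC genes were not called, and most of those called were lower. By limma on log2(FPKM + 0.1), with p-values adjusted over all 24508 genes tested, 33 of the 200 members changed by more than 2-fold with an adjusted p under 0.01. Of these, 30 were lower in LD and 3 higher, while 167 (83.5%) were not called and 120 of the 200 lay within 0.5 of a log2 fold change of 0. The share called was 16.5%, against 6.51% of all genes tested, 3.55% of the 1239 other TEC genes tested and 7.5% of the protein-coding genes. By the choice itself the other TEC genes lie below the members in level, where fold changes on this scale are understated. No share matched for level was taken. By direction, 15% of the members were lower against 2.37% of all genes, and 1.5% were higher against 4.13%. The choice itself bears on these shares, since a mean over both groups can be carried by one of them. *Gm37764* and *Gm47122*, both called lower, were below the limit of 1.59 FPKM in every LD retina. They could enter the 200 only through higher values in NL. How far the shares follow from the choice was not tested. With the 3 close pairs of retinas averaged, 19 members were called.

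Among all members, called or not, the log2 fold change was negative in 159 of 200 members (79.5%), against 51.4% of all genes tested. Its median was -0.30 in the members, -0.22 in the other TEC genes, 0.02 in protein-coding genes and -0.01 in all genes. The 5 NL and 5 LD retinas did not overlap in 64 members (32%), 59 of them lower in LD, against 22.4% of all genes. Without the authors' factor per retina the median of all genes was 0.11 and that of the members -0.17, so that the distance between them was nearly kept. A list of the same size chosen on the NL retinas alone shared 186 members, and all 33 genes called in it were lower, but a gene that is low in NL cannot enter such a list.

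**Figure D2:**
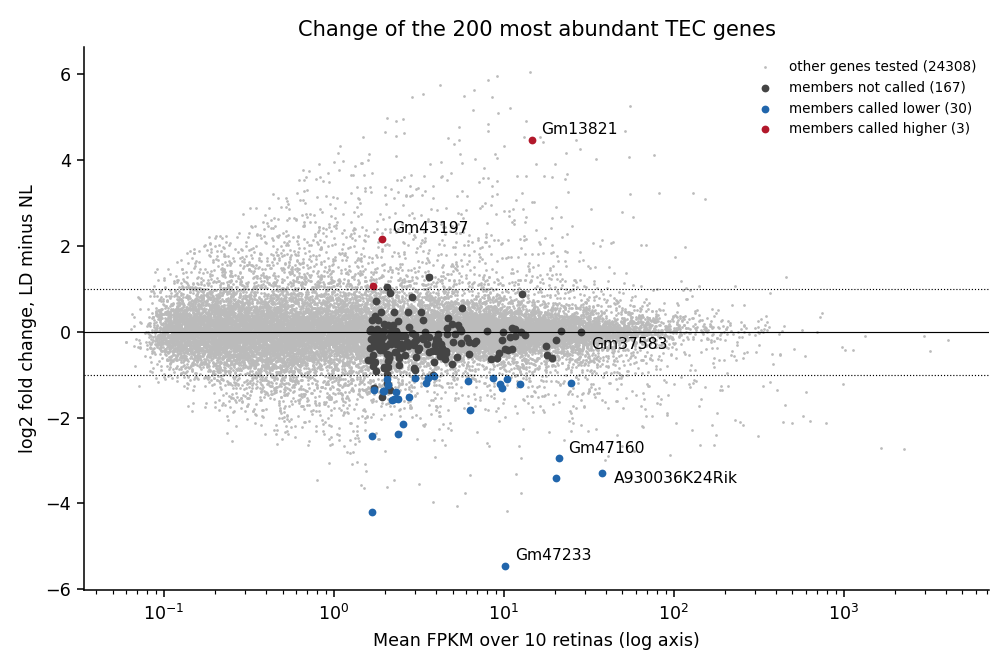
Log2 fold change, LD minus NL (vertical), against mean FPKM over 10 retinas (horizontal, log axis) for 24308 other genes (grey) and the 200 members, with 30 called lower in blue, 3 called higher in red and 167 not called in dark grey. Dotted lines mark a 2-fold change; the members form the dark band between 1.59 and 37.9 FPKM, and more of them lie below 0 than above.

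The most abundant member of all was one of those that fell. *A930036K24Rik* (chr9:107680082-107681281, + strand) begins 369 bases before the start of *Gnat1*, the rod transducin alpha subunit of the light response, and is read in the opposite direction. Its other neighbour *Sema3f*, a guidance factor, ends 218 bases beyond it on the opposite strand. Its FPKM was 75.5, 44.4, 73.7, 73.0 and 75.6 in NL-1, NL-4, NL-5, NL-7 and NL-8, and 11.8, 4.03, 4.51, 9.04 and 7.30 in LD-1, LD-4, LD-6, LD-7 and LD-8. Every LD retina was far below every NL retina, with LD-4 and LD-6 the lowest. The NL mean was 68.5 ± 13.5 FPKM and the LD mean 7.33 ± 3.22 (SD over 5 retinas, as in all such values below). By limma the log2 fold change was -3.29 ± 0.29 (SE, adjusted p = 1.65e-05). *Gnat1* fell from 2874 ± 260 to 464 ± 174 FPKM (log2 fold change -2.71 ± 0.26), and *Sema3f* from 40.2 ± 2.24 to 19.6 ± 3.13 (log2 fold change -1.05 ± 0.10).

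*Gm37764* and *Gm49154*, which overlap listed photoreceptor genes, fell as well. *Gm37764* lies in an intron of *Pdc*, on its strand (phosducin, a regulator of transducin in rods). It was at 3.46, 3.09, 5.25, 5.52 and 3.21 FPKM in NL-1, NL-4, NL-5, NL-7 and NL-8, and at 0.820, 0.482, 0.748, 0.735 and 0.648 in LD-1, LD-4, LD-6, LD-7 and LD-8. The groups did not overlap, and the log2 fold change was -2.39 ± 0.20 against -2.19 ± 0.17 for *Pdc*, a difference of -0.21 ± 0.19 (adjusted p = 0.608). *Gm49154* overlaps *Otx2*, a transcription factor of photoreceptors and bipolar cells, on its strand, and runs past an end of it. Its FPKM was 10.5, 8.65, 9.41, 10.6 and 9.81 in NL-1, NL-4, NL-5, NL-7 and NL-8 and 4.09, 1.45, 1.71, 4.11 and 3.31 in LD-1, LD-4, LD-6, LD-7 and LD-8. The log2 fold change was -1.82 ± 0.28, beside -0.66 ± 0.05 for *Otx2*, and the difference of -1.17 ± 0.24 had an adjusted p of 0.0192, short of the 0.01 set for a call. *Gm49153*, which lies 30364 bases before the start of *Otx2* and was picked for mention after its values were seen, was also lower (log2 fold change -1.07 ± 0.24, adjusted p = 0.00709).

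Members inside a gene of inner retinal neurons passed no test. *Trpm1*, the cation channel of ON bipolar cells, holds *Gm44719*, a member of 149 bases in an intron on its strand. *Gm44719* was at 22.6, 17.4, 21.2, 22.8 and 23.9 FPKM in NL-1, NL-4, NL-5, NL-7 and NL-8 and at 15.4, 22.5, 19.2, 19.2 and 17.8 in LD-1, LD-4, LD-6, LD-7 and LD-8. The groups overlapped (log2 fold change -0.20 ± 0.11, limma adjusted p = 0.21). *Gm44722*, also in *Trpm1* but on the other strand, was at 4.61 ± 0.906 in NL and 5.29 ± 1.21 in LD (adjusted p = 0.473). *Trpm1* itself was at 40.2 ± 2.82 and 46.1 ± 8.94 (adjusted p = 0.333).

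Of the members without any overlap, 66 in all, 8 were called lower and 2 higher. The share called was 15.2%, close to the 17.2% of the overlapping members, against 6.51% of all genes tested. The nearest protein-coding gene was 39 to 140601 bases away (median 2755), and 51 members had one within 10 kb. *Gm47160* (chr9:47473049-47474918, - strand) has *Cadm1*, a cell adhesion gene, as its nearest neighbour at 55254 bases. It was at 35.7, 31.1, 40.2, 38.7 and 38.0 FPKM in NL-1, NL-4, NL-5, NL-7 and NL-8 and at 8.40, 1.98, 2.99, 6.90 and 6.17 in LD-1, LD-4, LD-6, LD-7 and LD-8. No LD retina came near the NL range, and the log2 fold change was -2.95 ± 0.34 (adjusted p = 0.000119). *Cadm1* changed by -0.32 ± 0.04, below the 2-fold limit.

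*Gm47233* had the lowest log2 fold change of all 24508 genes tested. It lies at chr9:70069867-70072034 on the + strand, 16476 bases from *Fam81a* and 31778 bases from *Gcnt3*. Its FPKM was 18.7, 14.3, 19.8, 18.9 and 22.4 in NL-1, NL-4, NL-5, NL-7 and NL-8. In LD it was 0.0757, 0.0910, 0.144 and 0.122 in LD-1, LD-4, LD-6 and LD-7, from 4, 4, 7 and 6 reads, but 7.92 in LD-8, from 382 reads. Thus 4 LD retinas had only a few reads of it, and LD-8 lay between them and the lowest NL retina. The log2 fold change was -5.45 ± 0.93 (adjusted p = 0.00147), and with the close pairs averaged it was -4.73 with an adjusted p of 0.0332. Without LD-8 it was -6.50. *Fam81a* was at 1.03 ± 0.11 in NL and 0.981 ± 0.164 in LD.

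*1700029B24Rik*, the third in abundance, lies 1900 bases past the end of *Fabp12*, a fatty acid binding protein gene of the retina, on the opposite strand. It was at 34.2, 33.3, 33.8, 34.3 and 34.7 FPKM in NL-1, NL-4, NL-5, NL-7 and NL-8, a narrow range. In LD it was at 23.7, 9.92, 8.90, 20.1 and 16.5 in LD-1, LD-4, LD-6, LD-7 and LD-8, all lower. The log2 fold change was -1.20 ± 0.24 (adjusted p = 0.004), beside -1.33 ± 0.22 for *Fabp12*. This call was lost without NL-1, NL-5, NL-7 or NL-8 (adjusted p = 0.0104, 0.0106, 0.0109 and 0.0107) and with the close pairs averaged (0.0154), while the fold change stayed near its value.

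A group of members sat head to head with a gene, starting within 1 kb of its start and read away from it. There were 11 such members, with gaps of 39 to 635 bases, and 3 of them were called, all lower: *A930036K24Rik*, *Gm43231* before *Msi1*, and *Gm37935* before *Klhl12*. Called were 16.5% of all members and 6.51% of all genes, and whether so small a group differs from these shares was not tested. The median log2 fold change was -0.69 in the 11 members and -0.39 in their neighbours. The signs were the same in 8 of the 11. Over all 36 members in this arrangement, with gaps of up to 140601 bases, the median was -0.29, and -0.08 in the 33 neighbours tested, and the signs were the same in 19 of 33. *Msi1*, which codes for Musashi-1, an RNA-binding protein of progenitor cells and photoreceptors, went from 85.5 ± 5.49 to 44.0 ± 3.94 FPKM (log2 fold change -0.96 ± 0.07). *Gm43231*, 123 bases from it, fell from 13.3 ± 2.65 to 5.74 ± 1.66 (log2 fold change -1.23 ± 0.19, adjusted p = 0.000909). *A930005G22Rik*, further out at 7098 bases on the same strand as *Gm43231*, fell from 13.7 ± 1.93 to 5.72 ± 1.99 (log2 fold change -1.30 ± 0.21). *Gm37935*, 57 bases from *Klhl12*, fell from 4.82 ± 0.829 to 2.34 ± 0.967 (log2 fold change -1.07 ± 0.23, adjusted p = 0.00527), while *Klhl12* changed by -0.39 ± 0.07. *Gm43231*, *A930005G22Rik* and *Gm37935* were picked for mention after their values were seen.

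None of the 21 members lying within 10 kb past the end of a neighbour on its own strand was called by limma on FPKM or by limma-voom on the recovered reads, and 7 and 8 of them had an unadjusted p under 0.05. By limma on FPKM, 16.5% of all members and 6.51% of all genes were called, and whether the 21 differ from these shares was not tested. A share over all genes at the unadjusted p is not given here. The median log2 fold change of the 21 was -0.10. *Gm37583*, the second in abundance, lies 471 bases past *Lactbl1* on its strand. It was at 30.3, 25.6, 27.0, 27.6 and 32.3 FPKM in NL-1, NL-4, NL-5, NL-7 and NL-8 and at 23.6, 32.4, 33.5, 24.5 and 29.1 in LD-1, LD-4, LD-6, LD-7 and LD-8. The LD values spanned the NL values (log2 fold change -0.01 ± 0.11, adjusted p = 0.976). *Gm45884*, on chromosome 18, 2902 bases past *Pura*, was at 21.6 ± 1.19 in NL and 22.0 ± 1.06 in LD (log2 fold change 0.03 ± 0.05, adjusted p = 0.76).

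Of the 200, 3 TEC genes were called higher in LD. None of them was in the list chosen on the NL retinas alone. At their NL levels they could enter the 200 only through higher values in LD. *Gm13821* (chr5:114838875-114842075, - strand, 3201 bases) overlaps no protein-coding gene, and its nearest, *4930519G04Rik*, 11588 bases away, was at 0.0162 ± 0.0138 FPKM in NL and 0.00451 ± 0.0101 in LD. *Gm13821* was at 2.69, 0.324, 0.739, 0.647 and 2.35 FPKM in NL-1, NL-4, NL-5, NL-7 and NL-8, and at 46.5, 19.4, 20.2, 41.1 and 12.5 in LD-1, LD-4, LD-6, LD-7 and LD-8. The lowest LD retina was above the highest NL retina, although both groups spread widely. The mean rose 20.7-fold, and the log2 fold change was 4.47 ± 0.55 (adjusted p = 0.000184), rank 29 from the top of all genes tested. Leaving out any 1 retina gave 4.11 to 4.79. Of 30 listed glial and stress response genes, 28 were called higher in LD, with a median log2 fold change of 3.39, against 4.13% of all genes. That list was picked with earlier results of these data known, so its count is no independent finding. Whether *Gm13821* belongs with these genes was not tested.

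*Gm43197* (chr6:3336772-3339354, - strand) lies 32902 bases past the end of *Samd9l*, an interferon-induced gene, on the same strand. It was at 0.416, 0.601, 0.572, 0.675 and 0.885 FPKM in NL-1, NL-4, NL-5, NL-7 and NL-8 and at 4.89, 2.31, 2.61, 4.06 and 2.33 in LD-1, LD-4, LD-6, LD-7 and LD-8. The groups did not overlap, and the log2 fold change was 2.16 ± 0.25 (adjusted p = 0.0001), beside 3.19 ± 0.20 for *Samd9l*, which went from 0.480 ± 0.107 to 5.31 ± 1.51 FPKM. *Gm47246* lies in an intron of *Naa35*, a subunit of an amino-terminal acetyltransferase, on its strand. It was at 1.07, 1.22, 0.900, 0.840 and 1.22 FPKM in NL-1, NL-4, NL-5, NL-7 and NL-8 and at 2.77, 1.49, 1.88, 3.13 and 2.46 in LD-1, LD-4, LD-6, LD-7 and LD-8. Its log2 fold change was 1.06 ± 0.20 (adjusted p = 0.00282), beside 1.20 ± 0.14 for *Naa35*. The rise of *Gm47246* was just over the 2-fold limit, and without NL-7, LD-1 or LD-7 it was 0.99, 0.99 and 0.94. The call was also lost with the close pairs averaged (limma adjusted p = 0.0172) and with a pseudocount of 1, where the log2 fold change was 0.69.

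**Figure D3:**
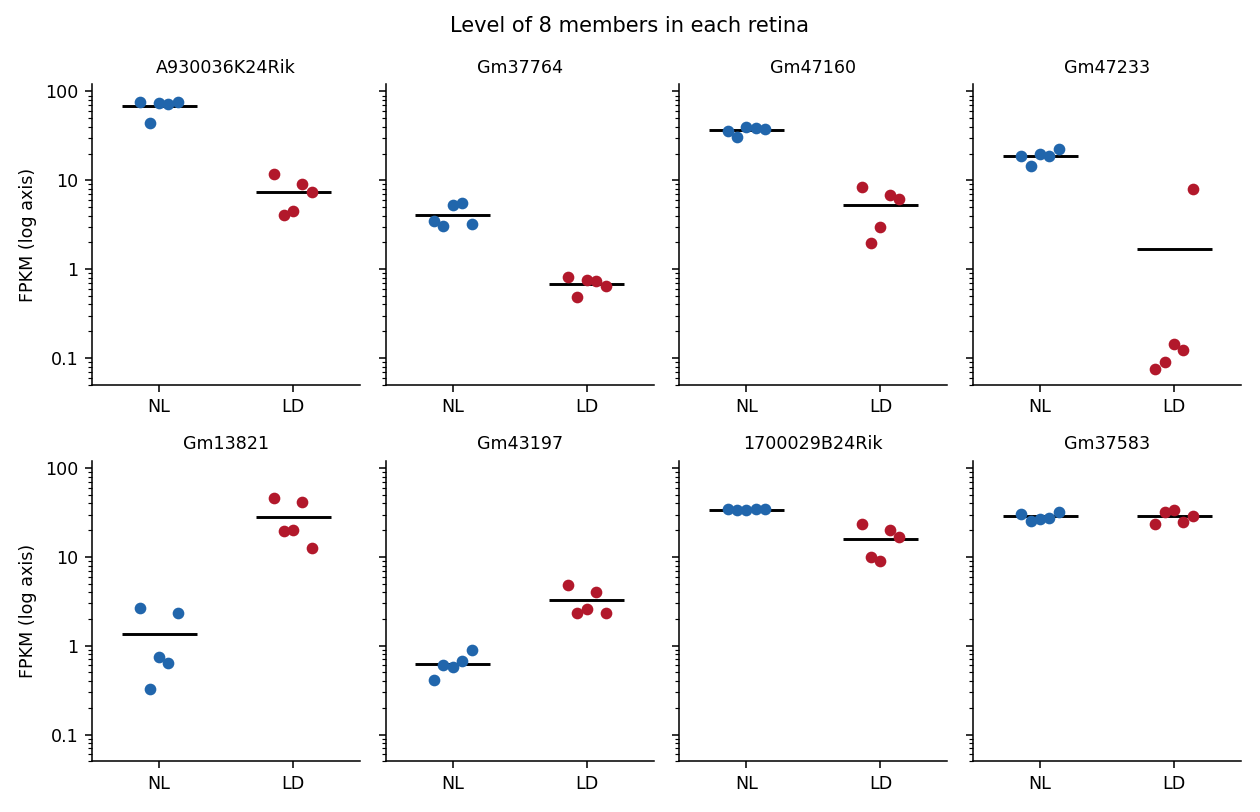
FPKM (log axis, the same in every panel) of 8 members in each NL (blue) and LD (red) retina, with bars for group means. NL and LD do not overlap in 7 panels, LD-8 stands far above the other LD retinas for *Gm47233*, and *Gm37583* shows no shift.

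*AC160637.1* in *Pkm*, *Gm43980* in the splicing regulator gene *Tra2a* and *Gm42732* in *Ociad1*, also among the 10 most abundant, were lower in every LD retina than in any NL retina, by less than 2-fold. *AC160637.1* went from 23.2 ± 2.18 to 15.1 ± 1.92 FPKM (log2 fold change -0.62 ± 0.09, adjusted p = 0.000687), beside -0.54 ± 0.09 for *Pkm*. *Gm43980* went from 21.2 ± 1.61 to 14.8 ± 2.95 (log2 fold change -0.54 ± 0.12, adjusted p = 0.0068), beside -0.36 ± 0.08 for *Tra2a*. *Gm42732* went from 19.98 ± 1.13 to 15.7 ± 0.506 (log2 fold change -0.34 ± 0.05, adjusted p = 0.000315), beside -0.12 ± 0.03 for *Ociad1*.

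Both the members and the genes they overlap leaned lower in LD. Of 132 pairs, the log2 fold change was negative in 107 members (81.1%) and in 100 of the genes (75.8%), and these shares alone would give the same sign in 66.0% of pairs. Over the 132 pairs the log2 fold changes of the member and of the gene it overlaps had the same sign in 107 (81.1%), 91 of them both negative, with Pearson r = 0.63 and a Spearman correlation of 0.63 across pairs, which share the 10 retinas and are not independent replicates. Pairs on opposite strands (r = 0.68, n = 52) and on the same strand (r = 0.60, n = 80) gave like values, as did pairs outside exons (r = 0.58, n = 93). For the 62 members without overlap whose nearest gene was tested, r was 0.45. Of the 23 called members with a partner, 12 had a partner that was called too, 11 of them in the same direction. Of all 132 pairs, 15 (11.4%) had a partner that was called, 3 of them with a member that was not.

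Several such pairs were picked for mention after their values were seen. *4930517G19Rik* (-1.58 ± 0.22) and *Gm44981* (-1.38 ± 0.15) lie in *Slc6a6*, the taurine transporter gene (-1.28 ± 0.08). *Gm47992* (-1.60 ± 0.34) lies in *Agpat3* (-1.20 ± 0.23) and *Gm43272* (-1.57 ± 0.21) in *Cds1* (-1.47 ± 0.18), both genes of phospholipid synthesis. *2610028D06Rik* (-1.08 ± 0.15) lies in *Cep164* (-1.25 ± 0.14), a gene of the base of cilia. *Gm48114* (-1.37 ± 0.21) lies in the sterol transporter gene *Gramd1b* (-1.02 ± 0.04). In *Usp33*, a deubiquitinase gene (-1.04 ± 0.08), *Gm43858* (-1.11 ± 0.12, same strand) and *Gm43859* (-1.16 ± 0.09, opposite strand) were called, and *Gm43857* (-0.61 ± 0.15, opposite strand, adjusted p = 0.0101) was not. These values are log2 fold changes with their SE, and all the named partners were called lower.

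**Figure D4:**
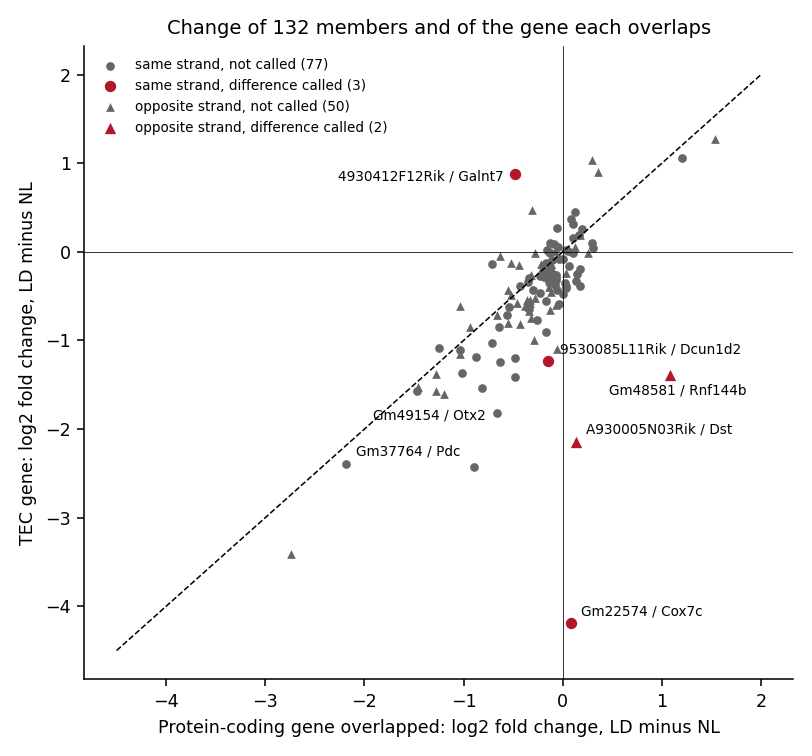
Log2 fold change, LD minus NL, of 132 TEC genes (vertical) against that of the protein-coding gene each overlaps (horizontal), circles for the same strand and triangles for opposite strands, with the 5 pairs whose difference was called in red. Points gather along the dashed line of equal change, with *Gm37764* in *Pdc* toward the lower left.

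Tested directly, few members departed from their gene. In limma on the difference of log2 values within each retina, 5 of the 132 pairs (3.79%) differed by more than 2-fold with an adjusted p under 0.01, against 0.62% of all 1129 TEC pairs tested. The TEC genes of the other pairs are lower in level, and these shares are not matched for it. The choice by mean level bears on them as well: *A930005N03Rik*, of a called pair, was below 1.59 FPKM in every LD retina. The member moved upward of its gene in 1 of the 132 pairs (0.758%), against 0.0886% of all pairs. It moved downward in 4 (3.03%), against 0.531% of all pairs. All pairs include those of the members, and the only upward call among all 1129 is the members' own. The median difference was -0.15 in the members' pairs and -0.19 in all pairs, and the member lay below its gene in 92 of 132 and in 826 of 1129. With the close pairs of retinas averaged no pair was called by limma, 29 had an unadjusted p under 0.05, and adjusted p for the 5 pairs was 0.0124 to 0.0597.

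The upward pair was in *Galnt7*, which codes for an enzyme that works on O-linked sugar chains. Its member *4930412F12Rik*, in an intron on the same strand, was at 9.47, 8.77, 6.09, 7.43 and 11.3 FPKM in NL-1, NL-4, NL-5, NL-7 and NL-8 and at 23.3, 8.99, 9.69, 23.4 and 18.8 in LD-1, LD-4, LD-6, LD-7 and LD-8. LD-4 and LD-6 lay within the NL range and the other LD retinas above it. Its own change of 0.87 ± 0.30 was not called (adjusted p = 0.0503). *Galnt7* went from 23.99 ± 2.96 to 17.6 ± 4.89 FPKM (-0.48 ± 0.17), so that the member stood at 35.9% of *Galnt7* in NL and 95.5% in LD, a difference of 1.35 ± 0.16 (adjusted p = 0.000748). The other members in *Galnt7* lay on the other side, with differences from it of -0.94 ± 0.22 for *Gm19269* (adjusted p = 0.0327) and -0.73 ± 0.23 for *Gm45358* (adjusted p = 0.101). *Gm19269* was at 3.36 ± 0.875 FPKM in NL and 1.29 ± 0.691 in LD (log2 fold change -1.41 ± 0.33, adjusted p = 0.00932), and *Gm45358* at 2.79 ± 0.723 and 1.30 ± 0.722 (-1.20 ± 0.37, adjusted p = 0.0344).

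**Figure D5:**
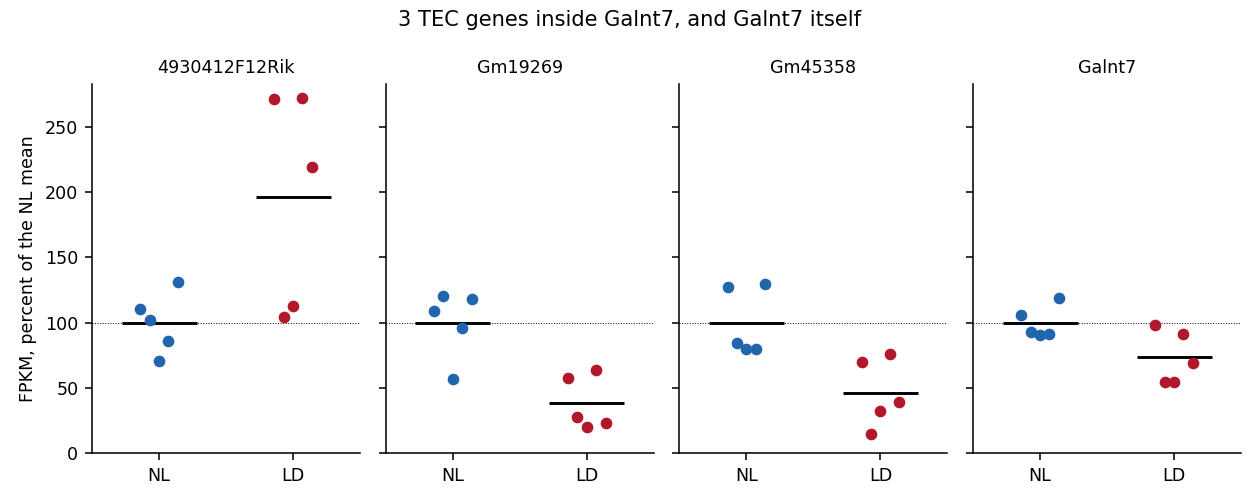
FPKM of the 3 members inside *Galnt7* and of *Galnt7* as a percent of each gene's NL mean, in each NL (blue) and LD (red) retina, with bars for group means and a dotted line at 100. *4930412F12Rik* stands above its NL range in LD-1, LD-7 and LD-8, while the other members lie below 100 in every LD retina.

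The downward pairs were of different kinds. *9530085L11Rik*, in an intron of *Dcun1d2* (a gene of cullin neddylation) on its strand, was at 18.3, 14.2, 19.1, 17.8 and 17.998 FPKM in NL-1, NL-4, NL-5, NL-7 and NL-8 and at 9.31, 6.13, 6.26, 7.83 and 7.69 in LD-1, LD-4, LD-6, LD-7 and LD-8. It was lower in every LD retina, with a log2 fold change of -1.23 ± 0.12 (adjusted p = 3.71e-05), and went from 154% to 72.9% of *Dcun1d2*, which changed by -0.15 ± 0.06. The difference was -1.08 ± 0.14 (adjusted p = 0.00086).

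*A930005N03Rik* lies in *Dst*, the gene of the linker protein dystonin, on the opposite strand, with 36.6% of its length in *Dst* exons. It was at 4.76, 2.79, 4.54, 4.12 and 4.63 FPKM in NL-1, NL-4, NL-5, NL-7 and NL-8 and at 1.51, 0.751, 0.466, 1.30 and 0.613 in LD-1, LD-4, LD-6, LD-7 and LD-8. It was lower in every LD retina (log2 fold change -2.14 ± 0.29, adjusted p = 0.000315) while *Dst* was at 11.2 ± 0.619 and 12.3 ± 1.16. The difference was -2.28 ± 0.31 (adjusted p = 0.00126).

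*Gm48581*, in *Rnf144b* (a ubiquitin ligase gene) on the opposite strand, was the only called member whose gene was called in the other direction. It was at 2.61, 2.49, 4.25, 3.68 and 1.48 FPKM in NL-1, NL-4, NL-5, NL-7 and NL-8 and at 1.25, 0.781, 0.624, 0.877 and 1.66 in LD-1, LD-4, LD-6, LD-7 and LD-8, so that NL-8 and LD-8 crossed. *Rnf144b* rose from 11.6 ± 1.80 to 25.3 ± 7.80 FPKM (log2 fold change 1.08 ± 0.20). The difference of -2.47 ± 0.33 had an adjusted p of 0.0012. The member's own call (log2 fold change -1.39 ± 0.31, adjusted p = 0.00678) was lost without NL-1, NL-4, NL-5, NL-7, LD-4, LD-6 or LD-7, with adjusted p of 0.0142 to 0.0197.

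The last of these pairs, *Gm22574* in *Cox7c* (a subunit gene of cytochrome c oxidase), rests on very few reads. *Gm22574* is only 60 bases long. It had 1 to 6 reads in the NL retinas (21 in all) and 0 to 1 in the LD retinas (1 in all), 3.20 ± 1.72 against 0.150 ± 0.335 FPKM. Against a floor of 3 reads per library, which covers counting error only, its level was at least 1.43-fold lower in LD. The fitted change depends on the pseudocount and is not read here, nor is the fitted difference from *Cox7c*. The other 4 pairs had at least 13 reads per retina in the member.

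The LD retinas differed in how far the members fell. Of the 30 members called lower, LD-4 was the lowest LD retina in 14 and LD-6 in 10, and both were the lowest pair in 16. These were also a close pair by counts. Without LD-4, 27 members were called, and without LD-6, 28.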

How the data were processed

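RNA-seq was done on 10 neural retinas, grouped as NL or LD by the sample labels. The authors deposited 1 table of FPKM values with positions on GRCm38, biotypes and lengths. The paper states that a company normalized the data. The submitters' processing notes name mm8, Bowtie2 2.0.6 and TopHat2 2.0.9 without a role, and the annotation, the counting tool and its use of strand are not given in the sources used here. FPKM times length was whole reads (within 0.01 read) in 100% of values.

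The members and lists were chosen with earlier results of these data known. Overlaps used the deposited gene starts and ends, taking the protein-coding gene with the longest shared stretch, and exons came from GENCODE M21. The LD and NL retinas were compared on log2(FPKM + 0.1) by limma 3.58.1 (R 4.3.3), with an intensity trend and Benjamini-Hochberg adjustment over 24508 genes. Pairs were compared by the same model on the difference within each retina over 1129 pairs. Fold changes on this scale are understated for low genes. Exact two-sided permutation tests of 5 against 5 retinas cannot go below 0.00794. In simulated data for 24508 genes, the gene test called 26 of 67 genes with a log2 change of 1.5, 49 of 67 at 2 and 58 of 66 at 3. For 1129 simulated pairs, the pair test called 53 of 67, 65 of 67 and 65 of 66. The same paired TEC genes were changed for both tests, a larger share of the pairs than of the genes. Values of different genes were drawn independently. The rates of the gene and pair tests can therefore not be compared, and the real data differ from this setting. Named genes were the 10 of highest mean, the 5 of largest increase and decrease among called members, the 5 called pairs of largest difference in each direction, the 5 of highest ratio to their partner, members overlapping a listed gene, and 2 on each side of the limit. Python 3.11.15, numpy 2.4.6, pandas 2.3.3, scipy 1.17.1 and matplotlib 3.10.9 were used. The result of 1 named member is not reported here.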

Additional observations from a re-analysis of the deposited data

Results flagged for a closer look

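Among 58 groups of 5 retinas looked at, 9 held a retina far from the rest of its group, where chance flags about 1 in 20 groups (2.9 of 58). LD-8 stood apart for *Gm47233* (7.92 FPKM against 0.0757 to 0.144 in the other LD retinas), *Gm37416* (4.24 against 1.12 to 1.55) and *Gm22574* (0.749, which is 1 read, against 0 in the others). NL-4 was low for *A930036K24Rik* (44.4 against 73.0 to 75.6), *AC160637.1* (19.4 against 23.7 to 24.8) and *9530085L11Rik* (14.2 against 17.8 to 19.1). NL-7 was high for *Gm45133* (13.1 against 10.7 to 11.4) and *Gm37127* (2.75 against 1.66 to 1.96). LD-1 was low for *4930466K18Rik* (3.44 against 3.86 to 3.97).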

How the results depend on the processing

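With 33 members called, a pseudocount of 1 gave 20, averaging the 3 close pairs of retinas 19, and an adjusted p under 0.05 with no minimum fold 86. These 86 were 43% of the members, against 27.8% of all genes tested at the same limit. Retinas of the 4 shared replicate numbers showed no clear pairing (correlations of the deviations -0.09 to 0.07, and up to 0.11 for unlike numbers). So few values cannot exclude a shared batch. With the replicate block 15 members were called, and 19 in the same retinas without it. Leaving out 1 retina gave 24 to 34, and the other alternatives 26 to 37. The count of pairs called, 5, became 8 with quantile normalization, 3 with partners on the same strand only (80 pairs) and 13 with an adjusted p under 0.05. It was 0 with close pairs averaged (limma, 29 pairs at an unadjusted p under 0.05), 0 with the replicate block (23 pairs at an unadjusted p under 0.05) and 1 in the same retinas without the block. Leaving out 1 retina gave 5 to 6. No value of a named member or pair changed direction after being called. Limma-voom on the recovered reads, which were whole in 100% of values, called 29 members, 27 of them shared. Of members with a median of under 100 reads, 16 of 91 were called, with a median SE of the log2 fold change of 0.197, and of those with more, 17 of 109, with a median SE of 0.131.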

Other observations

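Some members varied more within a group than between the groups, and were picked for mention after their values were seen. *Gm43622*, inside *Cspg5* on the opposite strand, was at 4.03, 7.46, 0.0244, 0.0233 and 0.211 FPKM in NL-1, NL-4, NL-5, NL-7 and NL-8. In LD it was at 2.44, 2.39, 1.90, 1.96 and 0.111 in LD-1, LD-4, LD-6, LD-7 and LD-8. It thus had 1 to 320 reads per retina in NL, while *Cspg5* was at 16.6 to 19.9 FPKM in NL. *Gm37416*, inside *Malrd1*, was at 0.588, 3.85, 0.310, 0.296 and 3.17 FPKM in NL-1, NL-4, NL-5, NL-7 and NL-8 and at 1.55, 1.40, 1.12, 1.24 and 4.24 in LD-1, LD-4, LD-6, LD-7 and LD-8. For both, NL-5 and NL-7, which were close over all genes, had like values. These values come from 1 read in each retina for *Gm43622* and 2 reads in each for *Gm37416*.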
